A study of Homo sapiens with 6 samples.

Results

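The cytosolic ribosomal protein genes encode the proteins of the ribosome that translates nuclear-encoded mRNA. They were taken by symbol, as RPL or RPS followed by digits and at most 1 letter out of A, X and L, together with RPSA, RPLP0, RPLP1 and RPLP2. This rule found 80 of the 30717 named genes, 48 of the large subunit and 32 of the small subunit, and all 80 passed the filter on low counts that left 20721 genes for testing. RNA was sequenced from T24 and UMUC3 (UM-UC-3), established human lines from bladder cancer, after knockdown of the circular RNA circPTK2. Each line has 2 knockdown libraries, titled si-circPTK2-1 and si-circPTK2-2, and 1 control library titled si-circPTK2-CON. The design text of the series names sh constructs and the titles name siRNAs, so the kind of reagent is not settled. The labels do not say whether the libraries are separate cultures, and the p-values below may rest on technical spread alone. If the numbers 1 and 2 name different reagents, the spread between knockdown libraries includes that difference too.

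Ribosomal proteins are built into the large and the small subunit in about equal molar amounts, together with the ribosomal RNAs, and cells coordinate their production largely at the level of translation. Most of their mRNAs begin with a C followed by an unbroken run of C and T, the 5′ terminal oligopyrimidine (TOP) tract, through which mTOR signalling and the RNA-binding protein LARP1 control their translation. Free ribosomal proteins can also act outside the ribosome, as RPL5 and RPL11 do when they bind MDM2 and stabilise p53.

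The annotated starts show how widely the TOP tract is shared, which no value of expression was used to find. RefSeq promoter entries on GRCh38.p14 matched 63 of the 80 genes by symbol. A tract, counted as a C at the annotated start followed by at least 4 letters that are each C or T, read on the transcribed strand only, was present at 59% of their 78 entries, against 4.07% of all 35116 promoter entries. It was present at 1 or more entries of 46 of the 63 genes (73%). Within 5 bases of the annotated start a tract was present at 73.1% of their entries, against 21.1% of all entries, and for 53 of the 63 genes (84.1%). The tracts had a median length of 8 bases and a range of 5 to 19. The windows below show 20 bases before and 10 bases from the annotated start, with the tract in capitals. RPS6, RPS12 and RPLP1 are shown because their mRNA differed strongly between the lines, RPL10 and RPL13 because they ran against most other members, and RPS26 and RPL6 as members without a tract within 5 bases.
RPS6, chr9:19380227-19380256, minus strand: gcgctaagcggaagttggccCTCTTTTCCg
RPS12, chr6:132814549-132814578, plus strand: ggcatgcgtgcggatgaggcCTCTTTCCCT
RPLP1, chr15:69452798-69452827, plus strand: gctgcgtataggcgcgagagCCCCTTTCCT
RPL10, chrX:154398357-154398386, plus strand: atgcgcaggcggaggagcgcCTCTTTCCCT
RPL13, chr16:89560662-89560691, plus strand: gtgcattgcggggccgcttcCTTTCCgctc
RPS26, chr12:56041898-56041927, plus strand: gctgggagacacataacctcgattttcttc
RPL6, chr12:112409276-112409305, minus strand: gaagcggggagacggcgcgtgcactgtgtt
RPS12 and RPL10 begin with the same 10 letters. RPS12 mRNA was lower in T24, and the higher estimate of RPL10 in T24 did not hold with pseudogene counts added, as described below.

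Total counts per library were 65111683 to 72362436, and 14.86 to 16.1% of them fell on transcripts that carry no gene and are left out of the values below. Levels of single genes are given as CPM, counts scaled to the library's total in named genes with TMM factors, which correct for the make-up of each library. Keratin and other epithelial markers, 15 of 16 listed genes having rows, summed to 3280 to 3464 CPM in T24 and 178.8 to 199.6 CPM in UMUC3. Of the immune markers 3 of 5 had rows and summed to at most 5.13 CPM in any library. KRT8 and KRT18 made up most of the epithelial sum, whereas E-cadherin (CDH1), KRT20 and the uroplakins UPK1A, UPK1B and UPK2 stood at 0 to 0.41 CPM in every library of either line. The endothelial and stromal markers summed to 67.6 to 79.0 CPM in T24, nearly all of it CDH5, and to 3.73 to 8.68 CPM in UMUC3, where CDH5 was at 0 in every library.

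Ribosomal protein genes took a smaller share of the counts in T24 than in UMUC3, in both subunits. Of the counts in named genes they held 4.99 and 4.84% in T24 knockdown libraries and 5.21% in T24 control cells, and 7.75 and 7.36% in UMUC3 knockdown libraries and 8.20% in UMUC3 control cells. The 3 T24 libraries lay below the 3 UMUC3 libraries without overlap. The mean was 5.01 ± 0.19% in T24 and 7.77 ± 0.42% in UMUC3 (SD, n = 3 each; exact two-sided permutation test p = 0.1, the smallest value that 3 against 3 libraries can give). Large subunit genes held 3.19 ± 0.15% in T24 and 4.74 ± 0.19% in UMUC3, and small subunit genes 1.82 ± 0.04% and 3.03 ± 0.25%, with the same exact p for each (n = 3 per line). Counts per transcript length, which set long and short mRNAs on one scale, gave 11.2 ± 0.1% of the total in T24 and 16.2 ± 0.5% in UMUC3 (SD, n = 3 each; exact permutation p = 0.1). As these are shares of RNA from bulk cells, a change in ribosomal protein mRNA and an opposite change in all other mRNA cannot be told apart.

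**Figure D1:**
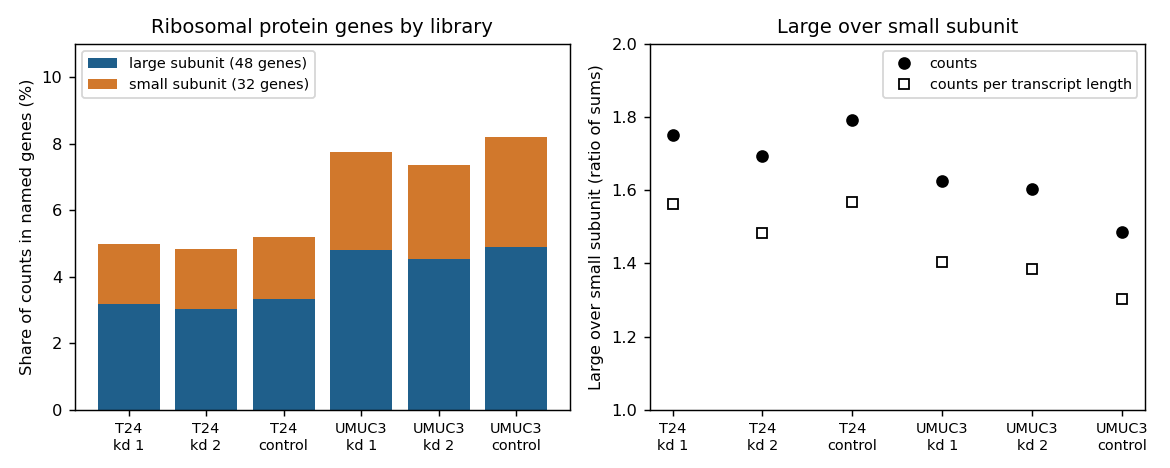
Left, share of the counts in named genes (%) held by large and small subunit genes in each library, stacked. Right, ratio of the large to the small subunit sum, from counts (dots) and from counts per transcript length (squares), on an axis that starts at 1; kd is knockdown. The T24 bars reach 4.84 to 5.21% and the UMUC3 bars 7.36 to 8.20%.

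The line difference was proportionally larger for the small subunit. The count ratio of large to small subunit was 1.75 and 1.69 after knockdown and 1.79 without it in T24, and 1.63 and 1.60 after knockdown and 1.49 without it in UMUC3. Means were 1.75 ± 0.05 in T24 and 1.57 ± 0.07 in UMUC3 (SD, n = 3 each; exact permutation p = 0.1, again the smallest possible). The ratio per transcript length was 1.54 ± 0.05 in T24 and 1.36 ± 0.05 in UMUC3 (exact permutation p = 0.1, n = 3 each). RPS2, RPL6 and RPL37 move within a line, as described further on. Without these 3 genes, a choice made after seeing the data, the ratio was 1.93 and 1.85 after knockdown and 1.82 without it in T24, and 1.63 and 1.67 after knockdown and 1.58 without it in UMUC3. The lines still did not overlap, and in T24 the knockdown libraries then lay above the control, the opposite of their order with all genes.

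Levels per transcript length differed widely between members. The median member stood at 1373 units in T24 and 1648 in UMUC3, a unit being a count per kilobase scaled to the same total over all named genes in each library. The highest were RPL10, a late-joining protein of the large subunit, at 4388 ± 936 in T24 and 4078 ± 230 in UMUC3, and RPS14, of the small subunit platform, at 2630 ± 107 in T24 and 5765 ± 130 in UMUC3 (SD, n = 3 each). RPL8, RPS18 and RPL35 completed the highest 5. The lowest were RPL3L, RPL39L and RPS27L, which are paralogs of RPL3, RPL39 and RPS27, then RPS25 and RPL14. Across the 80 members the mean levels per length of the lines had a Spearman rho of 0.85, given as a description of genes that share these 6 libraries and transcript lengths.

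Gene by gene, most ribosomal protein mRNAs were lower in T24 than in UMUC3. With knockdown as a second term, edgeR's quasi-likelihood test at a Benjamini-Hochberg adjusted p under 0.05 called 51 members lower in T24, where 18.9% of all tested genes were lower, and 3 higher, where 21.3% of all tested genes were higher. The lower members were 29 of the large and 22 of the small subunit, and the 3 higher ones were all of the large subunit. The median log2 fold change of T24 over UMUC3 was -0.53 for the large and -0.70 for the small subunit genes, and 0.02 over all tested genes. In 54 members all UMUC3 libraries lay above all T24 libraries, an order found in 25.1% of tested genes, in 5 the reverse held, found in 27.2%, and in 21 the lines overlapped.

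**Figure D2:**
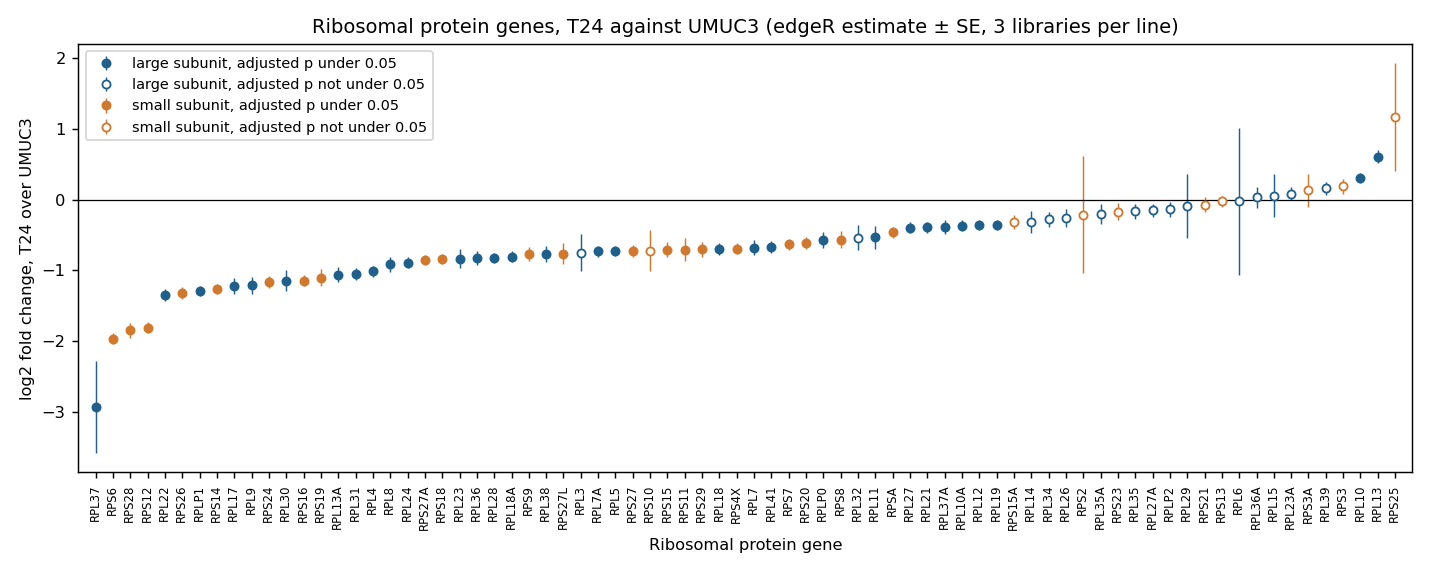
Log2 fold change of T24 over UMUC3 for 76 of the 80 genes, sorted, with dots at the edgeR estimate and bars of 1 SE (3 libraries per line); filled dots passed an adjusted p of 0.05. RPL39L, at 0 in every UMUC3 library, and RPL3L, near 0 throughout, are among those left out; most dots lie below 0 and RPL37 is the lowest at -2.93.

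Among small subunit proteins, RPS6, RPS28, RPS12, RPS26 and RPS14 stood furthest below UMUC3. RPS6, the substrate of the S6 kinases (ENSG00000137154, GRCh38 chromosome 9, 19375715 to 19380254), had 495.3 and 502.6 CPM in T24 knockdown and 519.1 CPM in T24 control libraries, and 2065 and 1845 CPM in UMUC3 knockdown and 2009 CPM in UMUC3 control libraries. The lines did not come near each other, and the log2 fold change was -1.96 ± 0.08 (SE; edgeR adjusted p = 4.89e-05). RPS12 stood at 454.8 and 451.7 CPM in T24 knockdown and 534.1 CPM in T24 control cells, and at 1669 and 1554 CPM in UMUC3 knockdown and 1811 CPM in UMUC3 control cells (-1.81 ± 0.07). RPS28, a small protein of the subunit head, averaged 154.8 ± 12.8 CPM in T24 and 555.4 ± 34.7 CPM in UMUC3 (-1.85 ± 0.11, and -1.15 ± 0.10 with the counts of its pseudogene added, which puts it behind RPS24 and RPS16). RPS26, which lies at the mRNA exit channel, averaged 275.7 ± 8.6 CPM in T24 and 686.8 ± 28.2 CPM in UMUC3 (-1.32 ± 0.08). RPS14 averaged 798.7 ± 35.1 CPM in T24 and 1920 ± 80 CPM in UMUC3 (-1.27 ± 0.07; all SD, n = 3 each). The edgeR adjusted p was 5.17e-05 for RPS12, 0.000176 for RPS28, 0.000239 for RPS26 and 0.000176 for RPS14, and in these 5 genes every T24 library lay below every UMUC3 library.

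Other small subunit proteins differed less or not detectably. RPS19, mutated in Diamond-Blackfan anaemia, was lower in T24 (-1.10 ± 0.12), as were RPSA, which doubles as the laminin receptor precursor (-0.46 ± 0.08), and RPS27A, made as a fusion with ubiquitin (-0.85 ± 0.08), with edgeR adjusted p values of 0.0015, 0.0057 and 0.0007. RPS3, at the mRNA entry channel, averaged 1594 ± 191 CPM in T24 and 1396 ± 85 CPM in UMUC3 and did not pass (0.19 ± 0.11, edgeR adjusted p = 0.213; SD, n = 3 each). RPS25 had the highest estimate of any member of at least 5 CPM on average besides RPL39L, 1.17 ± 0.76 (edgeR adjusted p = 0.278). Its own counts rested mostly on 1 library: it stood at 336.3 and 39.4 CPM in T24 knockdown and 97.3 CPM in T24 control libraries, and at 61.7 to 71.9 CPM in UMUC3. With 1 transcript without a gene added, chosen as described further on, its unscaled T24 counts were 21467 and 16456 after knockdown and 15472 in the control. In UMUC3 they were 8575 and 9687 after knockdown and 7121 in the control. Every T24 sum of RPS25 then lay above every UMUC3 sum, which was not tested.

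In the large subunit, RPL37, RPL22 and RPLP1 were lowest relative to UMUC3. RPLP1, an acidic protein of the stalk that recruits elongation factors, had 1109 and 1064 CPM in T24 knockdown and 1292 CPM in T24 control libraries, and 2813 and 2588 CPM in UMUC3 knockdown and 3029 CPM in UMUC3 control libraries (-1.29 ± 0.07, edgeR adjusted p = 0.0001). Its partner RPLP2 did not pass (-0.14 ± 0.10, edgeR adjusted p = 0.331), and RPLP0, the base of the stalk, was lower by less (-0.57 ± 0.11, edgeR adjusted p = 0.0105). The stalk proteins, which assemble together, thus had unlike differences between the lines; the difference between these members was not tested. RPL22, an RNA-binding protein of the large subunit, averaged 269.2 ± 17.7 CPM in T24 and 683.7 ± 36.4 CPM in UMUC3 (SD, n = 3 each; -1.34 ± 0.08). RPL37 had the largest estimate, -2.93 ± 0.65 (edgeR adjusted p = 0.0189), but its T24 libraries were far apart, at 41.3 and 46.3 CPM after knockdown and 274.5 CPM in the control. With either T24 knockdown library left out, RPL37 no longer passed between the lines, and its estimate was -1.0 ± 0.13 between the controls alone. RPL5 (-0.72 ± 0.07), RPL11 (-0.53 ± 0.16) and RPL23 (-0.83 ± 0.14), which bind MDM2, were lower in T24, with edgeR adjusted p values of 0.0009, 0.0421 and 0.0061.

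Only RPL10, RPL13 and RPL39L were called higher in T24. RPL13 (ENSG00000167526, GRCh38 chromosome 16, 89560657 to 89566828) had 1727 and 1687 CPM in T24 knockdown and 1978 CPM in T24 control libraries, and 1266 and 1122 CPM in UMUC3 knockdown and 1142 CPM in UMUC3 control libraries. The lowest T24 library was above the highest UMUC3 library, and the log2 fold change was 0.61 ± 0.09 (edgeR adjusted p = 0.0046). RPL39L, a paralog of RPL39 known from the testis, had 6.12 and 4.94 CPM in T24 knockdown and 10.99 CPM in T24 control libraries and 0 counts in all 3 UMUC3 libraries. Against a floor of 3 counts over the UMUC3 libraries together, it was at least 423.5-fold higher in T24, although at a small part of the level of RPL39. RPL39 itself averaged 438.9 ± 25.9 CPM in T24 and 391.8 ± 17.3 CPM in UMUC3 (SD, n = 3 each) and did not pass (0.16 ± 0.09, edgeR adjusted p = 0.202). RPL10 was higher by 0.31 ± 0.07 (edgeR adjusted p = 0.0142), a call that ended when its pseudogenes were added, when any 1 knockdown library of either line was left out, and with the controls alone.

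Some members differed between the lines in the opposite direction to a near-identical copy. Ribosomal protein genes have many processed pseudogenes, of which 498 had rows and 195 were tested, and reads that match both a gene and its copy can be assigned to either. Of the 195, edgeR called 39 lower in T24, where 18.9% of all tested genes were lower, and 8 higher, where 21.3% were higher. How reads were shared between genes and copies was not tested. RPL9 had 274.1 and 295.5 CPM in T24 knockdown and 231.0 CPM in T24 control libraries, and 593.3 and 600.6 CPM in UMUC3 knockdown and 654.7 CPM in UMUC3 control libraries (-1.21 ± 0.12, edgeR adjusted p = 0.001). Its pseudogene RPL9P9 had the reverse order, 400.3, 397.0 and 427.3 CPM in those T24 libraries and 53.5, 59.6 and 59.9 CPM in those UMUC3 libraries. The sum of both averaged 675.0 ± 17.1 CPM in T24 and 673.9 ± 35.9 CPM in UMUC3 (SD, n = 3 each), so the lines differed by less than the spread between libraries. With all pseudogene counts added to their parents, RPL9 stood at 0.02 ± 0.08 and RPL10 at 0.03 ± 0.07, neither of which passed edgeR. RPL10P9 had 71.8 and 78.6 CPM after knockdown and 60.6 CPM in the control of T24, and 388.1 and 350.5 CPM after knockdown and 374.3 CPM in the control of UMUC3. The other 52 calls remained under that addition. RPS28 kept its call with a smaller difference, -1.15 in place of -1.85, its pseudogene having 144.5 and 122.8 CPM after knockdown and 157.9 CPM in the control of T24, and 105.1 and 85.5 CPM after knockdown and 105.9 CPM in the control of UMUC3.

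**Figure D3:**
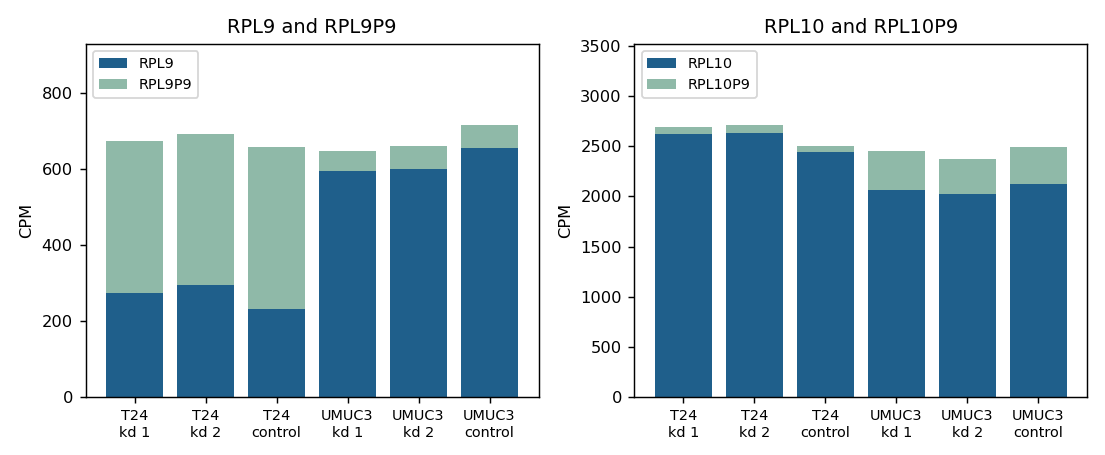
CPM of RPL9 with RPL9P9 (left) and of RPL10 with RPL10P9 (right) in each library, stacked; kd is knockdown. The RPL9 bars differ between the lines and the stacked totals do not, at means of 675.0 CPM in T24 and 673.9 CPM in UMUC3.

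The other paralogs can be set beside their partners. RPS27L, a p53-induced paralog of RPS27, was lower in T24 like RPS27 (-0.76 ± 0.14 and -0.72 ± 0.08). RPL22L1 was lower in T24, with 5.82 and 9.25 CPM after knockdown and 9.22 CPM in the control against 33.1 and 38.9 CPM after knockdown and 27.3 CPM in the control of UMUC3 (-2.02 ± 0.27, edgeR adjusted p = 0.0028), in the direction of RPL22. RPL7L1 (-0.92 ± 0.22) was lower like RPL7 (-0.68 ± 0.10). RPL26L1 and RPL36AL did not pass (0.46 ± 0.34 and -0.30 ± 0.11), nor did RPL26 and RPL36A (-0.25 ± 0.13 and 0.03 ± 0.14; edgeR). RPL3, the partner of the muscle paralog RPL3L, did not pass either (-0.75 ± 0.26, edgeR adjusted p = 0.0699), and RPL3L had at most 13 counts in any library.

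The pathway around the ribosome was set beside its proteins; each count below is to be read against the 18.9% of all tested genes called lower and the 21.3% called higher in T24. Of 26 genes of rRNA transcription and ribosome assembly, 16 were lower in T24 than in UMUC3 and 0 higher by edgeR (18 at an unadjusted p under 0.05), with a median log2 fold change of -0.89. They included LTV1, an export and maturation factor of the small subunit (-1.69 ± 0.12), and BOP1, of the PeBoW complex of the large subunit (-1.48 ± 0.12). Of 15 translation factors and other TOP genes, 7 were lower, led by EIF3E (-1.26 ± 0.08) and EIF4A2 (-1.04 ± 0.13), and 1 was higher, TPT1 (0.48 ± 0.10). Of 10 regulators, 3 were lower: the translation repressors EIF4EBP1 (-0.76 ± 0.12) and EIF4EBP2 (-0.68 ± 0.14), and MTOR (-0.60 ± 0.19, edgeR adjusted p = 0.0497), which is not a repressor. The transcription factor MYC, an activator of ribosomal genes, was the higher one, with 37.6 and 63.8 CPM after knockdown and 28.1 CPM in the control of T24, against 9.40 and 8.47 CPM after knockdown and 8.56 CPM in the control of UMUC3 (2.25 ± 0.30, edgeR adjusted p = 0.0027). MYC mRNA thus ran opposite to most ribosomal protein mRNAs between these lines. Of 78 mitochondrial ribosomal protein genes 24 were lower and 6 higher, with a median of -0.17, and MRPS6 (2.25 ± 0.22) and MRPL35 (-1.64 ± 0.14) are the outermost examples. Of 7 ribosomal proteins outside the symbol rule, 4 were lower and FAU was higher (0.30 ± 0.09).

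Members with and without a TOP tract at the annotated start were both lower in T24. Of the 46 with a tract, 27 were called lower and 2 higher, with a median log2 fold change of -0.55. Of the 17 without, 13 were called lower and 0 higher by edgeR, with a median of -0.70. Nothing particular to either class is drawn from these counts.

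Between knockdown and control libraries, ribosomal protein mRNAs differed little. In both lines together edgeR called 0 members, with 7 at an unadjusted p under 0.05, where 0.0145% of all tested genes were called and 11.6% had such a p. DESeq2 also called 0 and voom 0. The outermost estimates were -1.47 ± 0.64 for RPL37 and 1.06 ± 0.50 for RPL29, a large subunit protein (edgeR adjusted p = 0.465 and 0.497). In the counts of the genes themselves, the lines pointed different ways for RPL37, and the UMUC3 libraries for RPL29. The median member stood at -0.09 on the log2 scale and 61 of 80 were negative, against 49.5% negative over all genes. The median absolute log2 fold change was 0.15 in T24 and 0.14 in UMUC3 for members, and 0.39 and 0.45 for all tested genes. Members were also closer between the 2 knockdown libraries of a line. Their median absolute log2 ratio was 0.09 in T24 and 0.14 in UMUC3, against 0.26 and 0.28 for all tested genes. All tested genes include genes with counts just past the filter, whereas most members had high counts. Neither set of medians was matched for level, so whether members varied less than other genes of similar level was not tested.

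The small shift was downward in many members. Both T24 knockdown libraries lay below the T24 control in 53 members (37.3% of all tested genes), both UMUC3 knockdown libraries below the UMUC3 control in 47 (37.1%), and all 4 below their control in 32 (15.1%), of which 18 were of the large and 14 of the small subunit. All 4 lay above in 1 member, RPL32, against 13.3% of tested genes. RPLP1 is an example, at 1109 and 1064 CPM after knockdown against 1292 CPM in the control of T24, and at 2813 and 2588 CPM after knockdown against 3029 CPM in the control of UMUC3 (log2 -0.21 ± 0.07 in both lines together, edgeR adjusted p = 0.378). RPS12 stood at -0.20 ± 0.08 (adjusted p = 0.397), RPL7A at -0.30 ± 0.09 (adjusted p = 0.308) and RPS15 at -0.31 ± 0.11 (adjusted p = 0.383), none past the threshold of edgeR. Counts on transcripts without a gene are left out of these values, and sums of these examples with such a transcript are given further on. All libraries of a line share 1 control, so a single high or low control library moves every member of that line. The medians were -0.12 in T24 and -0.09 in UMUC3.

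In T24, RPL37 was the only member called. RPL37, a zinc-binding protein of the large subunit (ENSG00000145592, GRCh38 chromosome 5, 40825262 to 40835335), had 41.3 and 46.3 CPM in the knockdown libraries against 274.5 CPM in the control. Both knockdown libraries were far below the control, with a log2 fold change of -2.65 ± 0.11 (edgeR adjusted p = 0.0316; 12 members at an unadjusted p under 0.05, 12.5% of all tested genes), where 0.0434% of all tested genes were called lower and 0.0917% higher. The call ended without either T24 knockdown library or either UMUC3 knockdown library, with a replicate block, with voom and with the earlier quasi-likelihood method of edgeR (adjusted p = 0.0509). With voom or a replicate block 0 of all tested genes were called in T24, so that loss is not particular to RPL37. Leaving out any 1 knockdown library leaves 1 in its group, and the RPL37 estimates were then -2.73 to -2.57. In UMUC3, RPL37 had 637.9 and 590.6 CPM after knockdown against 549.0 CPM in the control (0.16, edgeR adjusted p = 0.547), and the difference of the effects between T24 and UMUC3 was -2.81 ± 0.16 (edgeR adjusted p = 0.0534). Among the lowest T24 estimates after RPL37, RPL3 stood at -0.38 ± 0.38 and did not pass edgeR (adjusted p = 0.746). With 1 transcript without a gene added, chosen as described further on, the unscaled T24 counts of RPL3 were 75106 and 74822 against 76319 in the control.

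In UMUC3 edgeR called 0 members (5 at an unadjusted p under 0.05, against 16.8% of all tested genes; DESeq2 2, voom 0), where 0.647% of all tested genes were called. The difference between the lines' effects also had 0 calls (8 at an unadjusted p under 0.05, against 13.5% of all tested genes; DESeq2 3, voom 0; 0.0579% of all tested genes called). RPL11, which binds MDM2, had 1172 and 1068 CPM after knockdown against 760.1 CPM in the UMUC3 control (0.56 ± 0.09, edgeR adjusted p = 0.102). Its unscaled counts were 65720 and 65007 against 42450. With 1 transcript without a gene added, chosen to even out the libraries as described further on, they were 65720 and 70427 against 62811. RPL15 was at 715.2 and 1007 CPM against 464.2 CPM (0.89 ± 0.45, edgeR adjusted p = 0.432), and RPL35A at 344.6 and 466.5 CPM against 556.3 CPM (-0.46 ± 0.21, adjusted p = 0.38). With such a transcript added, the unscaled counts of RPL15 were 49139 and 66215 against 44356. Those of RPL35A were 29574 and 31401 against 31083, but its transcript was also chosen for RPSA. Of the other genes of the pathway, EIF4EBP2 alone was called by edgeR in a knockdown comparison, with 80.8 and 86.8 CPM after knockdown against 219.2 CPM in the UMUC3 control (-1.39 ± 0.11, edgeR adjusted p = 0.0446).

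RPL6 and RPS2 had large estimates of opposite sign in the lines without passing edgeR. RPL6, a large subunit protein, had 912.7 and 889.5 CPM in T24 knockdown against 104.5 CPM in T24 control libraries (3.11 ± 0.27, edgeR adjusted p = 0.0829), and 455.1 and 322.4 CPM in UMUC3 knockdown against 997.6 CPM in UMUC3 control libraries (-1.36 ± 0.22, adjusted p = 0.108). RPS2, near the decoding site of the small subunit, had 2177 and 2033 CPM in T24 knockdown against 467.8 CPM in T24 control libraries (2.17 ± 0.58, edgeR adjusted p = 0.309). In UMUC3 it had 738.7 and 1664 CPM after knockdown against 2816 CPM in the control (-1.23 ± 0.50, edgeR adjusted p = 0.351). The difference of the effects, T24 minus UMUC3, was 4.47 ± 0.34 for RPL6 and 3.40 ± 0.76 for RPS2 (edgeR adjusted p = 0.0921 and 0.25). With pseudogene counts added, RPS2 stood at 1.16 in T24 and -0.86 in UMUC3 with a difference of 2.02, and RPL6 at 2.34 in T24 and -1.12 in UMUC3 with a difference of 3.46. Without UMUC3 knockdown library 1 the UMUC3 value of RPS2 was -0.76, and without library 2 it was -1.93. DESeq2 called RPL6 in each line and RPS2 in T24. RPL29 had 806.6 and 737.4 CPM in T24 knockdown libraries against 292.5 CPM in the T24 control, but in UMUC3 its knockdown libraries, at 1090 and 321.3 CPM, lay on both sides of the control at 421.3 CPM. With 1 transcript without a gene added, chosen as described below, its unscaled UMUC3 counts were 67993 and 68673 after knockdown against 57787 in the control. In T24 they were 47983 and 43844 against 20473.

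**Figure D4:**
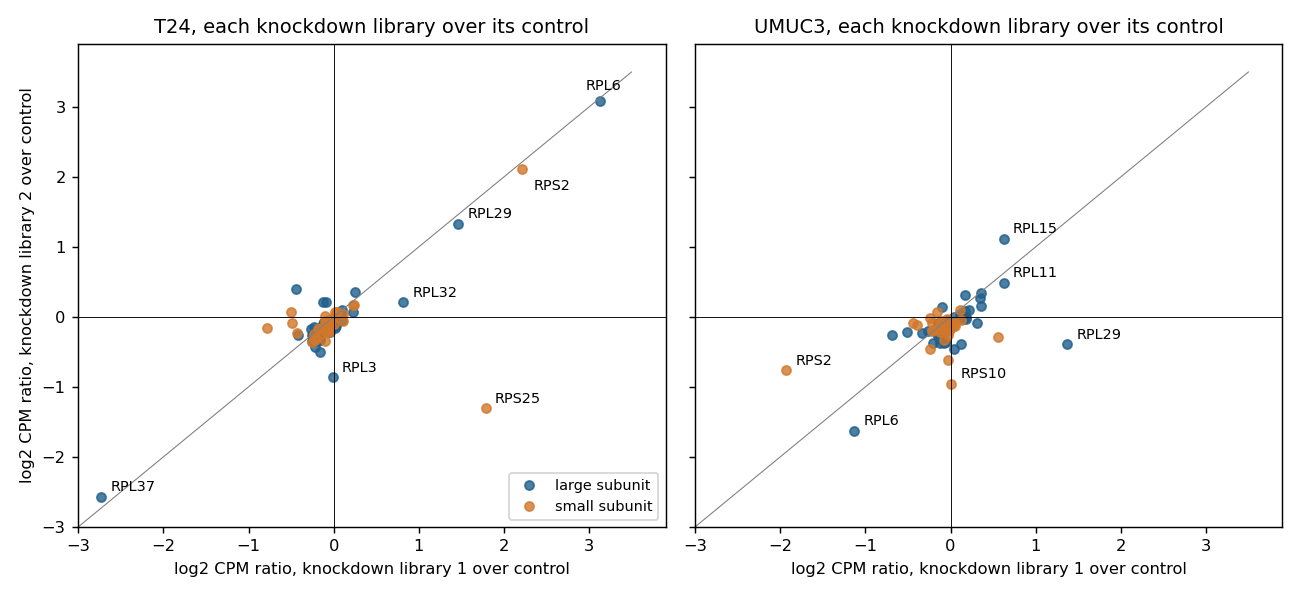
Log2 CPM ratio of knockdown library 1 (x) and 2 (y) over the control of the same line, for 78 members, T24 left and UMUC3 right; the grey line marks equal ratios and members past 0.8 in either library, and RPL11 in UMUC3, are named. RPL39L and RPL3L are left out; most members lie close to 0, and RPL6 and RPS2 change sign between the lines.

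Counts on transcripts that carry no gene mirrored several of these members. For each member, the 1 such transcript was taken, out of 4810 with at least 1000 counts, that most evened out the libraries of each line when added to the gene; this choice uses the values, so it is a description with no test. For RPL37 the gene had 2458 and 2752 counts in T24 knockdown libraries against 16309 in the control, the transcript 21294 and 21412 against 9016, and their sum 23752 and 24164 against 25325. In UMUC3 the sum was 45749 and 45070 after knockdown against 44565 in the control. The low RPL37 count of the T24 knockdown libraries was not present in the sum. For RPL6 the sum was 54299 and 52884 in T24 knockdown against 41637 in T24 control libraries, and 70033 and 73003 in UMUC3 knockdown against 67438 in UMUC3 control libraries. For RPS2 it was 129494 and 121037 against 150155 in T24, and 136131 and 107669 against 157246 in UMUC3. For RPLP1 it was 92089 and 92001 against 92659 in T24, and 200057 and 220178 against 207058 in UMUC3. For RPS12 it was 35949 and 36421 against 36542 in T24, and 103269 and 108249 against 101165 in UMUC3. The RPL7A sum was 92384 and 83040 against 82584 in T24, and 123722 and 141112 against 126524 in UMUC3. The RPS15 sum was 14921 and 14878 against 14162 in T24, and 26370 and 27640 against 25938 in UMUC3. None of these sums is scaled to library size. Named genes held 60780176 and 60711544 counts in T24 knockdown libraries against 58650541 in the T24 control. In UMUC3 they held 56006586 and 60056073 against 55071837, so the order of sums that lie close together can follow library size. Of the 27 members whose spread within a line exceeded an SD of 100 CPM, 23 fell to under 0.5 of that spread with the chosen transcript added. In 8 of the 27 the chosen transcript was also chosen for another of the 27, so it cannot belong to both. The transcripts of RPS12 and RPL35, which are among the 27, were also chosen for RPL18 and RPS9, which are not. The transcript of RPS15, outside the 27, was also chosen for RPL36. Whether these transcripts come from the genes was not tested.

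**Figure D5:**
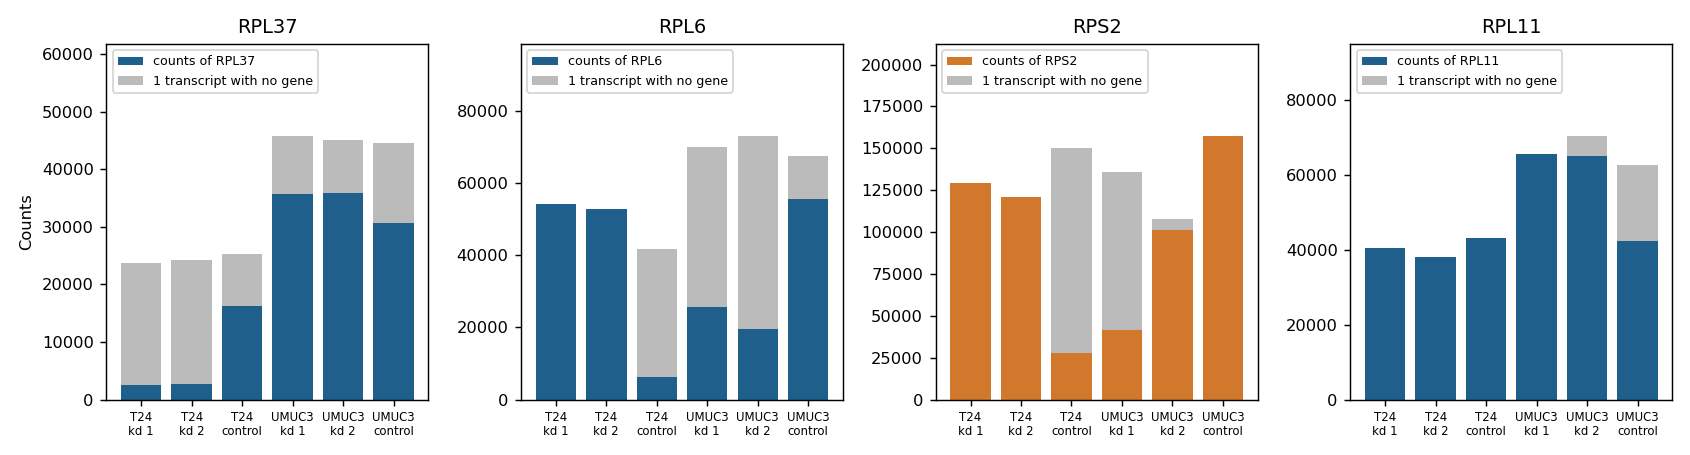
Counts of RPL37, RPL6, RPS2 and RPL11, with the counts of 1 transcript that carries no gene stacked on top in grey, in each library; kd is knockdown. The coloured parts differ between libraries of a line more than the stacked totals, except for RPL11 in T24, where the transcript has 0 counts; for RPL37 in T24 2458 and 2752 counts after knockdown against 16309 in the control, with totals of 23752, 24164 and 25325.

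Reads also moved between the transcripts of 1 gene. The composition shift, the largest share of a gene's counts that lay on different transcripts in any pair of libraries of a line, was above 0.2 in 32 members in T24 and 29 in UMUC3. In RPL4 a transcript of 1396 bases (ENST00000561775) held 121525 and 132432 counts in the UMUC3 knockdown libraries and 0 in the UMUC3 control and in all T24 libraries. Another (ENST00000307961) held 58704 and 61067 counts in UMUC3 knockdown libraries against 174812 in the control. The gene's sum hardly differed, at 3554 and 3501 CPM after knockdown against 3644 CPM in the control. In RPS6 the shift was 0.87 in T24 while its 3 libraries stayed within 495.3 to 519.1 CPM.

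The 29 members with a shift under 0.1 in both lines, a limit set after seeing the data, can be set beside all members. Of these 29, edgeR called 19 lower and 1 higher in T24, with a median log2 fold change of -0.68, against 51 lower, 3 higher and a median of -0.67 over all 80, and they include RPS28, RPS12, RPS26, RPS14, RPL22 and RPLP1. Of all tested genes, 18.9% were called lower and 21.3% higher. In the knockdown comparison of both lines 25 of the 29 were negative, with a median of -0.13, and edgeR called 0 of them. Of all tested genes, 49.5% were negative and 0.0145% were called. A low shift does not measure reads lost to transcripts without a gene.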

How the data were processed

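The authors deposited raw read counts per transcript for 6 libraries, and the submitters' processing notes name hg38, HISAT2 2.1.0, StringTie 1.3.3b and FastQC 0.11.5 with no role given; strand and RNA selection are not given in the sources used here. Of 136953 transcripts 15038 carry no gene and were left out. The others were summed to 30717 genes. Gene coordinates and transcript lengths are from GENCODE 29. Replicate numbers follow the titles; in T24 the numbers in the column names are swapped.

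Genes that reached 10 counts in 2 or more libraries, with 30 or more in all, were tested with edgeR 4.0.16 in R 4.3.3 (TMM, quasi-likelihood F test, Benjamini-Hochberg adjustment over all 20721 genes at 0.05). Line and knockdown were additive terms (3 residual degrees of freedom) for both lines together and for T24 against UMUC3. A 4-group model (2 residual degrees of freedom) served each line and the difference; there the lone control is assumed to vary like the knockdown pairs. Fits were tested on simulated data. Alternatives used limma 3.58.1 (voom) and DESeq2 1.42.0.

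The members, the other gene lists and the alternatives were chosen with earlier results of these data known. Named genes are members called in a knockdown comparison, the 8 highest and lowest called between lines, the 3 outermost per comparison, the 5 highest and lowest per length, paralogs, stalk, MDM2-binding and selected small subunit proteins, and up to 2 called genes per direction of each other list. RPL10L was not analysed here. A few genes that meet the rule are not reported here, though they enter every count. CPM, levels per length and the composition shift were computed from the deposited counts. RPL4, RPL7A, RPL9, RPL32, MTOR and the transcripts without a gene were chosen after their values were seen. Reads of near-identical copies and of overlapping or antisense genes cannot be told apart. CircPTK2 itself was not measured.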

Additional observations from a re-analysis of the deposited data

Results flagged for a closer look

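Transcripts that carry no gene, which enter no comparison, held a larger share of all counts after knockdown than in the control of the same line. In T24 they held 15.74 and 16.10% in the knockdown libraries against 14.86% in the control. In UMUC3 they held 15.43 and 15.84% against 15.42%, so the nearer library exceeded the control by little. With 1 control per line the difference has no test, and its part in the lower values of ribosomal protein genes was not tested.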

How the results depend on the processing

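Between the lines, 46 to 55 members passed under all alternatives, against 54, with leave-one-out fits giving 48 to 52. RPL9 changed sign with pseudogene counts added (0.0171). The share difference, -2.76 percentage points, was -2.33 with unnamed transcripts in the denominator and -2.97 to -2.54 leaving out a library. The ratio difference, 0.17, was 0.13 to 0.20 leaving out a library and 0.24 without RPL37, RPL6 and RPS2. In T24 the 1 call became 0 with voom, with the earlier edgeR method and with either replicate block, 3 with DESeq2 (RPL37, RPL6, RPS2), and 0 to 1 leaving out a library. In UMUC3 the 0 calls became 2 with DESeq2 (RPL6, RPL11). In the difference they became 3 with DESeq2 and 1 without a count filter, and in both lines together 0 to 1 leaving out a library, the 1 (RPL37) without the UMUC3 control, where the effect rests on T24. Other causes were not tested. Over all genes DESeq2 called 981, 980, 1715 and 1120 genes in both lines, T24, UMUC3 and the difference, against 3, 28, 134 and 12, and voom 3, 0, 0 and 0. With no filter on low counts these were 8, 43, 224 and 35, and with the earlier edgeR method 2, 2, 13 and 5. Same-numbered knockdown libraries deviated together with a correlation of 0.011 by title and -0.011 by column name. These are 1 value with its sign reversed, so they cannot decide whether a number names the same reagent in both lines. A replicate block gave 0 calls over all genes in every knockdown comparison and 54 members between lines.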
